A study of Mus musculus with 79 samples.

Results

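The expression of 40 genes of the adipose extracellular matrix and of its remodelling was followed in inguinal white adipose tissue (iWAT), caudal vertebrae (CV) and lumbar vertebrae (LV) of mice given leptin into the brain. They were chosen by gene symbol, and all 40 were found among the 39063 genes with counts in the deposited tables, of which 14873 averaged at least 0.4 TPM over the 79 samples and were tested. TPM counts transcripts after scaling each gene by its length and each library to the same total. All 40 passed this minimum. By role they comprised 5 fibrillar and fibril-associated collagens (Col3a1, Col5a1, Col5a2, Col5a3, Col14a1), 3 chains of type VI collagen (Col6a1, Col6a2, Col6a3), 9 genes of the basement membrane (Col4a1, Col4a2, Col15a1, Col18a1, Lama2, Lama4, Lamb1, Lamc1, Nid1), 3 genes of fibronectin and elastic fibres (Fn1, Fbn1, Eln), 3 crosslinking enzymes (Lox, Loxl1, Loxl2), 4 proteoglycans (Dcn, Lum, Bgn, Vcan), 3 matricellular proteins (Thbs1, Thbs2, Tnc), 6 proteases (Mmp2, Mmp3, Mmp14, Adamts1, Adamts2, Fap), 3 protease inhibitors (Timp1, Timp2, Timp3) and the progenitor receptor Pdgfra.

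Each fat cell is wrapped in a basement membrane, a sheet in which networks of type IV collagen and laminin are tied together by nidogen and which type XV and type XVIII collagens border. Outside it lie fibrillar collagens, the beaded filaments of type VI collagen, fibronectin, elastic fibres and small proteoglycans, made largely by stromal and progenitor cells that carry Pdgfra, while adipocytes themselves contribute type IV and type VI chains. Lysyl oxidases crosslink collagen and elastin, secreted and membrane-bound proteases cut the matrix when a depot grows or shrinks, and tissue inhibitors of metalloproteinases restrain them.

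The mice received leptin at 100 ng per h, or phosphate-buffered saline (PBS), into a cerebral ventricle (ICV) for 9 days and were 4 to 6 months old, and the study's methods give pair feeding for leptin and PBS mice alike. Wild-type (WT) mice were BMAd-Pnpla2+/+ littermates and knockout (KO) mice were BMAd-Pnpla2-/-, which lack the lipase ATGL, encoded by Pnpla2, in bone marrow adipocytes, all on a mixed SJLxC57BL6 background. The female groups were iWAT, CV and LV of 5 WT mice with leptin and 5 with PBS, and CV and LV of 4 KO mice with leptin and 4 with PBS, and the tissues of a treatment group came from the same animals. The male groups were all CV, from 8 WT mice with leptin, 5 with PBS, 6 with leptin and insulin pellets placed under the skin, and 5 with PBS and insulin pellets, and from 4 KO mice with leptin and 5 with PBS. The 11 insulin mice carried mouse numbers of other series than the mice without insulin, so insulin and series cannot be told apart. All 5 mice with PBS and insulin and samples 1 to 3 of the mice with leptin and insulin carried numbers of 1 series, and samples 4 to 6 of the latter those of another. A further series held KO mice only, so KO and WT mice were partly of different series. Of the male KO mice, some with leptin came from a series that held no male KO mouse with PBS.

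RNA was taken from whole pieces of fat or bone, and marrow adipocytes, in which Pnpla2 is deleted, are 1 of many cell types in such bone. Pnpla2 lay between 217 and 288 TPM in CV of female WT mice with PBS and between 131 and 256 in the KO, and between 191 and 294 and between 135 and 209 in the males, so the genotypes overlapped and neither difference passed the test (adjusted p = 0.369 and 0.917, edgeR's quasi-likelihood test). Libraries of LV held the most counts, 28717516 to 29757254 each, those of CV between 16100377 and 19364106 and those of iWAT between 17638318 and 19100698. The 6 adipocyte markers summed to between 37657 and 54427 TPM in iWAT, 5921 and 7774 in CV and 253 and 426 in LV of the female WT PBS mice. In the same order 6 haematopoietic markers summed to at most 492 TPM, 1930 to 9793 and 128528 to 158242 TPM. Fat was thus highest in adipocyte markers and LV in haematopoietic markers, with CV between. In CV the skeletal muscle markers summed higher than the adipocyte markers. In the same mice 4 of 6 chondrocyte markers and 2 of 6 osteoblast markers were under 0.1 TPM in every iWAT sample, whereas skeletal muscle markers reached 38157 TPM in CV, 2442 in iWAT and 2559 in LV, and mammary epithelial markers summed to 742 to 1141 TPM in iWAT.

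The promoters of 4 matrix genes that fell in iWAT with leptin are shown, as the stretch of 250 bases before the transcription start. They stand for 2 basement membrane genes and for both neighbouring type VI collagen genes among the 9 fallen genes for which a promoter sequence was held. Sequences are from RefSeq (GRCm38.p6), 5′ to 3′ on the strand of the gene, and capitals mark every match on either strand to TATAAA, to CCAAT, to GGGCGG, to TGACTCA or to AGGTCA, none of which contains another. Nid1 lies at chr13:13437352-13437601 on the plus strand, Col18a1 at chr10:77166531-77166780, Col6a1 at chr10:76726045-76726294 and Col6a2 at chr10:76623631-76623880, all 3 on the minus strand.
Nid1: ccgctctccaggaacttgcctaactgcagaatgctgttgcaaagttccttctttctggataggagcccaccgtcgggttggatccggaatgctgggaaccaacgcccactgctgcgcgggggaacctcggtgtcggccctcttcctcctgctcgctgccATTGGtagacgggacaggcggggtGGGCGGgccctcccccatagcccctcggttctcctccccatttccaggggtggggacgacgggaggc
Col18a1: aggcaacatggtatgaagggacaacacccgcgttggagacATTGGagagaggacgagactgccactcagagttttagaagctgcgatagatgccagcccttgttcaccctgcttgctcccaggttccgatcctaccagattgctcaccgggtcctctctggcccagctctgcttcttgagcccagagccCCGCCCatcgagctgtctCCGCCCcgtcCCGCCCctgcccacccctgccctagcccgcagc
Col6a1: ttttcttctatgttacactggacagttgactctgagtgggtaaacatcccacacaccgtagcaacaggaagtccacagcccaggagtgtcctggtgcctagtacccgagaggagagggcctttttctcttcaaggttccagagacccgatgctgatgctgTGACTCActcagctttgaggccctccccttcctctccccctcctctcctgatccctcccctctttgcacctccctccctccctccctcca
Col6a2: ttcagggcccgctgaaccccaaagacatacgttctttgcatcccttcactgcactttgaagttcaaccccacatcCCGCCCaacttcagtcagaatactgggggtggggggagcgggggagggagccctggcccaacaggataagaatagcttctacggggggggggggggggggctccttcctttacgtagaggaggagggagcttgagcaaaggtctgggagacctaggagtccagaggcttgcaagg

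The Nid1 stretch held CCAAT on the opposite strand and GGGCGG, the binding letters of the Sp1 family, on its own strand. Col18a1 held 1 CCAAT and 3 GGGCGG on the opposite strand, Col6a2 held 1 GGGCGG on the opposite strand, and Col6a1 held the AP-1 motif TGACTCA. Of the 40 genes 26 had a promoter sequence in the table, and over these 26 GGGCGG was present in 17 (65.4%), against 33% of all 27025 promoters of that length. CCAAT was present in 11 of 26 against 34.5% of all, TATAAA in 5 against 13%, TGACTCA in 2 against 4.43% and AGGTCA in none against 13.8%. Median GC content was 60.6% in the 26 and 52% in all promoters, and these shares are a description of letters, not of factor binding.

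Without leptin the 40 genes were arranged differently in fat and in the 2 kinds of bone. In female WT mice with PBS, the basement membrane genes were highest in iWAT, the proteoglycans, matricellular proteins and inhibitors were highest in CV, and the summed TPM of each class was lowest in LV except for the matricellular proteins, which were lowest in iWAT (43.1 ± 8.23 TPM, mean ± SD, n = 5, against 131 ± 23.3 in LV). Col3a1, the fibrillar collagen of pliable tissues, measured 496, 761, 691.86, 554 and 665 TPM in the 5 iWAT samples, 271, 239.5, 248, 241 and 311 in CV and 3.45, 5.75, 5.17, 2.09 and 4.96 in LV. The 3 tissues did not overlap. Col4a1, a chain of the type IV network, measured 259.9, 252, 233, 217 and 223 TPM in iWAT, 97.1, 108, 98.9, 84.6 and 111 in CV and 7.25, 6.61, 7.78, 4.77 and 7.16 in LV, again in 3 separate ranges. Tnc, the matricellular protein tenascin C, was ordered otherwise, at 3.40, 3.08, 4.12, 4.39 and 3.12 TPM in iWAT, 144, 132, 273, 237 and 234 in CV and 70.7, 43.8, 63.7, 51.7 and 69.1 in LV. All samples of fat were below all samples of either bone. In whole tissue, fewer cells of a type and less RNA per cell cannot be told apart.

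**Figure D1:**
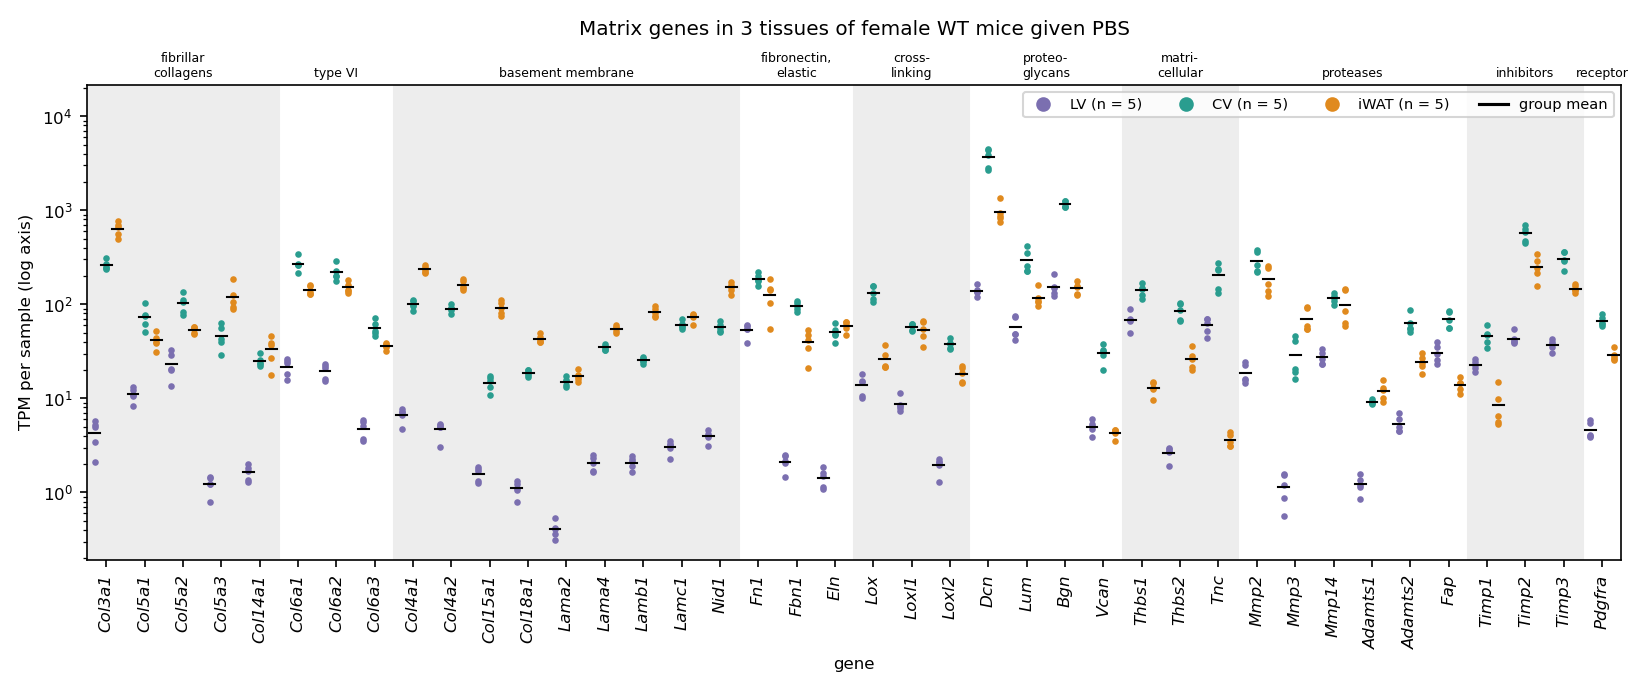
TPM of each gene in each female WT PBS sample, on a log axis, with the 40 genes ordered by class and iWAT, CV and LV in different colours (5 samples each). CV samples lie above LV samples for all 40 genes, and iWAT samples lie lowest for Tnc, Thbs1, Fap and Timp1 and highest on average for the basement membrane genes.

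In CV against LV, 37 of 40 genes were higher and 0 lower at an adjusted p under 0.05 and a log2 fold change of at least 0.5 in size, the definition of a call used throughout (edgeR's quasi-likelihood test, adjusted by Benjamini-Hochberg over all genes tested). Of all genes, 34.9% were called higher and 31.7% lower. The tests between tissues treated libraries as independent, although the tissues came from the same mice. With a mouse block all 37 genes kept the call, as did all 36 in iWAT against LV. In CV against iWAT 31 kept it and 1 lost it. The largest differences on the log2 scale were those of Col3a1 (4.85, SE 0.231), Fbn1, the main protein of microfibrils (4.42), Col5a3 (4.14), Lama2, a laminin of muscle and nerve (4.13), Eln, elastin (4.03), Thbs2 (3.91), Dcn, decorin (3.58), Mmp3, stromelysin (3.52), Loxl2 (3.22) and Lamc1 (3.20). The 3 genes not called were Thbs1 (-0.05), Fap, a serine protease of activated fibroblasts (0.06), and Timp1 (-0.11). These values depend on the scale. On log2(TPM + 1) the median of all genes stood 0.87 higher in CV than in LV and all 40 genes were called higher, Thbs1 and Timp1 included, and on TPM every CV sample exceeded every LV sample for all 40 genes and for 71.6% of genes. The share of all genes called on log2(TPM + 1) is not given, so that count is not a result about these 40.

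In iWAT against LV, 30 genes were higher and 6 lower, beside 33.9% and 32.6% of all genes. All 9 basement membrane genes were among the higher, at log2 fold changes of 3.66 to 4.95. The largest differences were those of Col3a1 (6.30), Col5a3 (5.70), Tnc (-5.04), Mmp3 (5.02), Col15a1 (4.95), Lama2 (4.49), Col18a1 (4.47), Eln (4.42), Lamb1 (4.40) and Nid1 (4.34). Beside Tnc, the genes lower in fat were Thbs1, Timp1, Fap, Vcan and Bgn, with log2 fold changes of -3.31, -2.37, -2.08, -1.20 and -0.99. On log2(TPM + 1), where the median of all genes was 0.71 higher in iWAT than in LV and 0.14 higher in CV than in iWAT, 34 genes were higher and 4 lower, without Vcan and Bgn. These 2 counts too stand without the share of all genes called on that scale, and only show the dependence on scale.

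In CV against iWAT, 20 genes were higher and 12 lower, beside 26% and 24.5% of all genes. Of 9 basement membrane genes 7 were lower in bone and 0 higher, whereas all 4 proteoglycans, all 3 matricellular genes and all 3 inhibitors were higher. Markers of tendon cells and chondrocytes were higher in CV as well, whereas those of fibroblasts and progenitors in sum were not. The 7 fibroblast and progenitor markers summed to 1299 to 1673 TPM in CV and 1573 to 2641 in iWAT. In sum the 3 tendon markers lay at 127 to 152 TPM in CV, against 2.79 to 4.80 for fat and 3.11 to 4.42 for LV, and the 6 chondrocyte markers at 1366 to 1756, 2.14 to 3.24 and 142.9 to 221 TPM, and all 3 and all 6 were called higher in CV than in either tissue. Their part in the differences was not tested. The 10 largest differences were those of Tnc (5.78), Thbs1 (3.28), Vcan, the large proteoglycan versican (3.02), Col15a1 (-2.81), Bgn, biglycan (2.80), Timp1 (2.27), Lox (2.25), Fap (2.16), Lamb1 (-1.87) and Dcn (1.78). Dcn, which coats collagen fibrils, measured 869, 929.7, 1365, 748 and 828 TPM in iWAT and 3895, 2786, 2709, 4399 and 4489 in CV. The groups were apart, with every CV sample above every iWAT sample. Of the genes with the highest mean in their class over all samples, Fn1 and Mmp2, the gelatinase of stromal cells, were not called between CV and iWAT (log2 fold changes of 0.41 and 0.47), whereas Col6a1 (0.78), Timp2 (1.03) and Pdgfra (1.05) were higher in bone.

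In iWAT of female WT mice, ICV leptin lowered 11 of the 40 genes and raised 0, and 7 of these 11 were basement membrane genes. Over all genes 7.87% were called lower and 7.24% higher. The summed level of the 9 basement membrane genes was 915 ± 57.4 TPM (SD, n = 5) with PBS and 334 ± 60.5 (SD, n = 5) with leptin. That of the 6 proteases was 405 ± 126 and 429 ± 99.1 TPM, and that of the 3 inhibitors 404 ± 77.3 and 405 ± 57.7 TPM, and both sums differed by less than the spread between samples. The median log2 fold change was -0.38 over the 40 genes and 0.07 over all genes tested. Of the basement membrane genes 9 of 9 were below 0, against 42.3% of all genes.

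**Figure D2:**
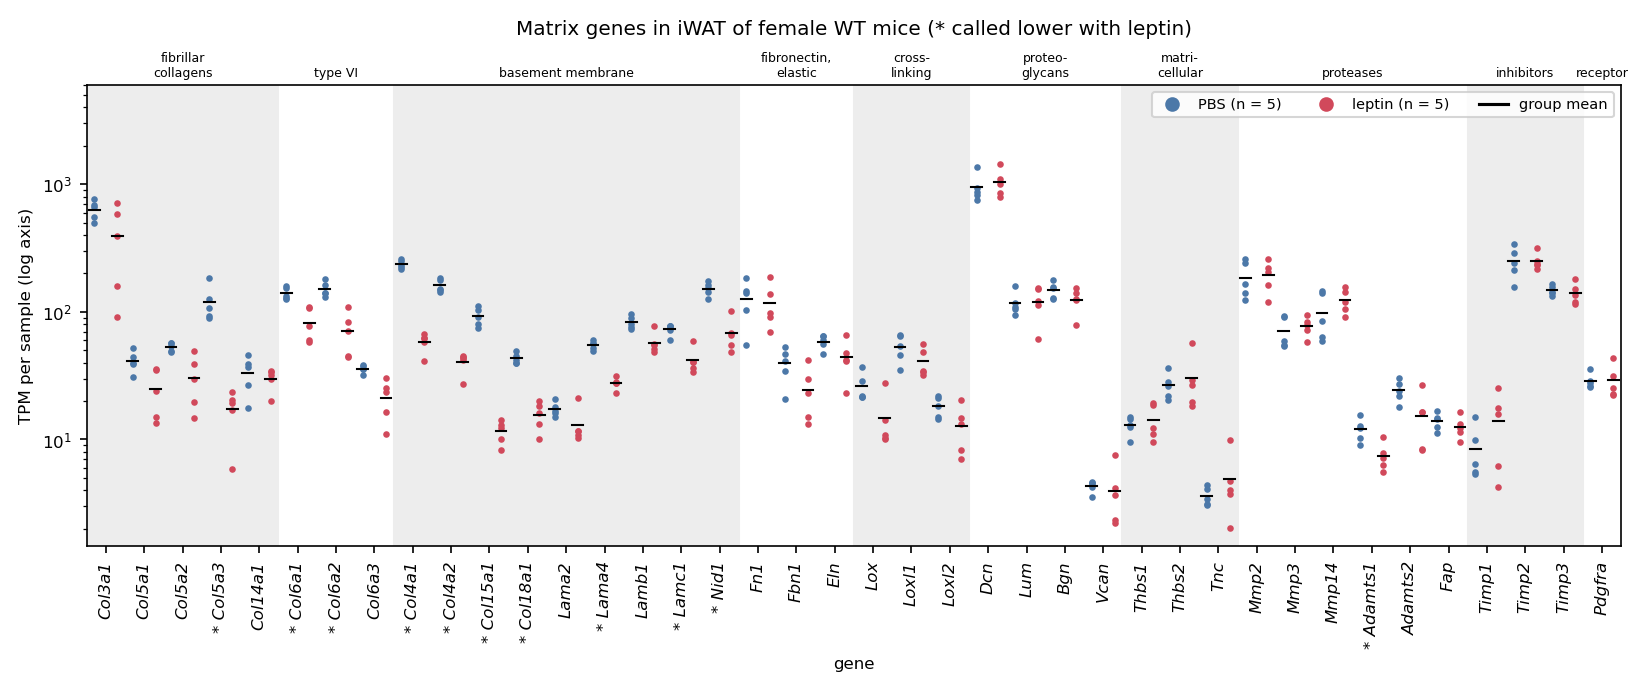
TPM of the 40 genes (log axis) in iWAT of female WT mice, with each PBS and leptin sample as a point (n = 5 and 5), a line for each group mean and a star before the 11 genes called lower. The leptin samples of Col4a1, Col4a2 and Col15a1 lie far under the PBS samples, and those of Dcn, Mmp2, Timp2 and Pdgfra overlap them.

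Type IV collagen, the scaffold of every basement membrane, is built from Col4a1 and Col4a2 chains, whose genes lie head to head. Col4a1 measured 259.9, 252, 233, 217 and 223 TPM in the PBS samples and 62.9, 66.7, 62.1, 41.6 and 58.5 in the leptin samples, and fell by 1.94 on the log2 scale (SE 0.122, adjusted p = 8.07e-06, edgeR). Every leptin sample was below every PBS sample by a wide margin. Col4a2 measured 179, 183.78, 151, 144 and 149 TPM with PBS and 43.6, 45.4, 44.1, 27.1 and 41.6 with leptin, and fell by 1.91 (SE 0.141, adjusted p = 1.88e-05, edgeR). The groups were as far apart as for its partner chain, though these genes overlap by 85 bases on opposite strands and the use of strand in counting is not given in the sources used here.

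Col15a1 and Col18a1 encode the collagens with cleavable endostatin-like ends at the border of the basement membrane. Col15a1 measured 104, 111, 91.5, 80.4 and 74.4 TPM with PBS and 14.1, 12.3, 10.1, 8.23 and 13.1 with leptin. It fell by 2.91 on the log2 scale (SE 0.162, adjusted p = 6.44e-06, edgeR), the largest fold of the 40 genes in this comparison, and the groups did not overlap. Col18a1, whose promoter is shown above, measured 45.5, 49.5, 39.4, 39.6 and 41.8 TPM with PBS and 20, 18.2, 13.3, 10.1 and 16.0 with leptin. Its groups were also apart, and it fell by 1.48 (SE 0.148, adjusted p = 1.22e-04, edgeR).

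Among the laminins, Lama4 encodes the alpha chain of vessel and fat cell laminin and Lamc1 the gamma chain that most laminins share. Lama4 measured 57.4, 52.2, 55.7, 49.8 and 60.7 TPM with PBS and 27.7, 28.1, 31.7, 23.0 and 27.6 with leptin, and Lamc1 72.7, 77.8, 78.1, 59.8 and 77.0 with PBS and 40.8, 40.6, 59.7, 34.0 and 36.5 with leptin. Lama4 was cleanly separated, while the third leptin sample of Lamc1 came within 1 TPM of the lowest PBS sample. Lama4 fell by 0.91 (SE 0.0884, adjusted p = 1.08e-04, edgeR) and Lamc1 by 0.70 (SE 0.151, adjusted p = 0.00799, edgeR). Lamb1, the beta chain, had a log2 fold change of -0.45 at an adjusted p of 0.0378 (edgeR), under the size needed for a call, and Lama2 one of -0.31 at 0.25. Nid1, which links laminin to type IV collagen, measured 143, 155, 162.08, 127 and 173 TPM with PBS and 54.9, 68.0, 102, 48.9 and 66.1 with leptin. No leptin sample reached the lowest PBS sample, and Nid1 fell by 1.07 (SE 0.188, adjusted p = 0.00281, edgeR).

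Outside the basement membrane the calls were fewer. Col5a3, a chain of the type V collagen that sets fibril width, measured 106, 185.26, 89.2, 93.0 and 126 TPM with PBS and 19.4, 17.1, 23.7, 5.88 and 20.5 with leptin. The highest leptin sample was far below the lowest PBS sample, and the gene fell by 2.72 on the log2 scale (SE 0.349, adjusted p = 5.33e-04, edgeR). The other 4 fibrillar and fibril-associated collagens were below 0 but not called. Col3a1 is an example of their spread, at 496, 761, 691.86, 554 and 665 TPM with PBS and 396, 91.3, 719.9, 160.93 and 586 with leptin. Its leptin samples ran from under every PBS sample to among the highest, and its log2 fold change was -0.60 (SE 0.475, adjusted p = 0.372, edgeR).

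Type VI collagen forms the filaments between the basement membrane and the fibrils. Col6a1 measured 134, 155, 159, 127 and 128 TPM with PBS and 78.1, 58.1, 107, 60.5 and 109 with leptin, and Col6a2 141, 181.64, 162.09, 140.2 and 131 with PBS and 70.7, 44.2, 83.5, 44.8 and 109 with leptin. For both chains all leptin samples were lower, with the fifth the nearest to the PBS range. Col6a1 fell by 0.67 (SE 0.196, adjusted p = 0.0282, edgeR) and Col6a2 by 1.00 (SE 0.245, adjusted p = 0.0139, edgeR), while Col6a3 had a log2 fold change of -0.66 that was not called (adjusted p = 0.0562). Adamts1, a protease that cleaves versican, was the only protease called: it measured 15.7, 12.8, 10.2, 9.05 and 12.4 TPM with PBS and 7.14, 7.90, 10.5, 6.26 and 5.53 with leptin. The third leptin sample lay inside the PBS range, and Adamts1 fell by 0.59 (SE 0.181, adjusted p = 0.0353, edgeR).

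The remaining genes were not called in iWAT. Mmp2 measured 139.6, 241, 259, 123 and 165.65 TPM with PBS and 221, 119, 260.4, 162.67 and 204 with leptin (log2 fold change 0.15, SE 0.259), and Dcn 869, 929.7, 1365, 748 and 828 and 1100.3, 997, 1453, 862 and 801 (log2 fold change 0.22, SE 0.199). Both overlapped between the groups. Log2 fold changes were 0.10 for Timp2, 0.10 for Pdgfra, 0.00 for Fn1, -0.75 for Lox and 0.53 for Tnc, with adjusted p of 0.726, 0.731, 1, 0.0864 and 0.291 (edgeR). In 11 genes every leptin sample was below every PBS sample, against 14.3% of all genes. They were the called genes with Col6a3 in place of Adamts1.

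The third leptin sample of iWAT was the highest of its group for many of these genes. Without it 20 genes were called, all lower, and without each of the other 9 samples 9 to 11 were. The share of all genes called in these fits is not given, so the counts describe only how far the calls depend on samples. All of the called genes except Col6a1 and Adamts1 were called in each of the 10 fits that left out 1 sample. Col6a1 was called in 6 of 10 and Adamts1 in 3 of 10. Adamts1 was not called with the replicate block or with the mouse series as a covariate. Each arm held mice of 2 series of mouse numbers, and the 11 genes were lower with leptin within both.

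Genes outside the 40 were counted by list. Of 12 other basement membrane genes 4 fell and 0 rose, namely Nid2 (log2 fold change -2.01), Col4a3 (-1.34), Hspg2, perlecan (-0.88), and Lamb2 (-0.59). Of 19 collagen processing enzymes and chaperones 3 fell and 0 rose: Sparc (-1.51), the collagen chaperone Serpinh1 (-1.09) and P3h1 (-0.62). Of 16 matrix receptors 5 fell, led by the laminin receptors Itga7 (-1.75) and Dag1 (-0.93), and Cd44 rose (0.74). Of 19 other proteases and inhibitors 6 fell, led by Adamts9 (-1.85) and Adamts5 (-1.25), and Mmp11 rose (1.23). Of 9 other collagens tested only Col27a1 rose (0.99), of 28 other glycoproteins 2 fell and 0 rose, and of 13 genes of TGF-beta and CTGF signalling only Tgfb2 rose (0.73).

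Cell type markers were measured beside these changes. In the leptin iWAT the 6 adipocyte markers summed to 12730 to 30115 TPM, against 37657 to 54427 with PBS, and 3 of 6 were called lower (Lep, Fabp4 and Plin1, with log2 fold changes of -7.54, -1.11 and -0.95). The 5 endothelial markers summed to 233 to 344 TPM with leptin and 248 to 358 with PBS, with 0 called. The 7 fibroblast and progenitor markers summed to 1506 to 2021 and 1573 to 2641 TPM, with Ly6a higher and Dpt lower, and of 4 smooth muscle and pericyte markers only Cspg4 was called (-1.68). Their part in the fall of the matrix genes was not tested.

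In CV of female WT mice leptin raised 4 of the 40 genes and lowered 1, beside 2.78% and 2.25% of all genes. The genes that rose were of different classes: Tnc, the inhibitor Timp1, the collagen Col5a2 and the protease Fap. Col5a3 fell. No basement membrane gene was called, and their log2 fold changes ran from -0.46 to 0.03. Lama2 had the lowest (-0.46, adjusted p = 0.00955, edgeR), just under the size needed for a call.

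**Figure D3:**
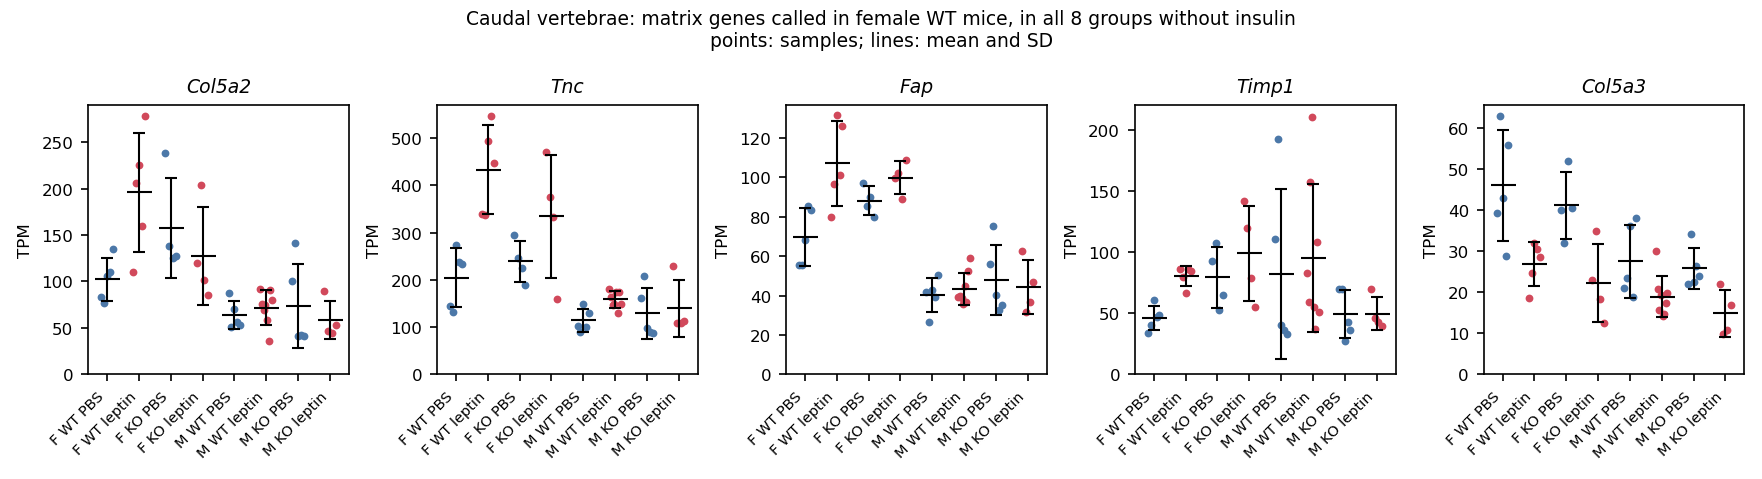
TPM of the genes called with leptin in CV of female WT mice, shown in all CV groups without insulin, each sample as a point with the mean and SD as lines (n = 4 to 8 per group). In female WT mice Tnc and Timp1 are apart between PBS and leptin, and in the other CV groups the ranges overlap.

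Tnc measured 144, 132, 273, 237 and 234 TPM in CV with PBS and 339, 337.36, 494, 547 and 448 with leptin, all leptin samples being above all PBS samples. It rose by 1.06 on the log2 scale (SE 0.209, adjusted p = 0.015, edgeR). Timp1, which inhibits most metalloproteinases, measured 34.0, 39.97, 61.0, 46.8 and 49.0 TPM with PBS and 85.9, 79.7, 66.6, 86.3 and 84.4 with leptin. These groups were apart too, and Timp1 rose by 0.76 (SE 0.146, adjusted p = 0.0136, edgeR). Timp1 lies inside Syn1, and whether the counting used strand is not given in the sources used here. With all CV groups in 1 fit Timp1 was no longer called.

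Col5a2 measured 83.4, 76.6, 106, 110.1 and 135 TPM with PBS and 110.3, 207, 225, 160.1 and 278 with leptin and rose by 0.93 (SE 0.237, adjusted p = 0.0338, edgeR). Fap measured 55.6, 55.5, 68.3, 85.7 and 83.7 TPM with PBS and 80.1, 96.5, 132, 101 and 126 with leptin and rose by 0.60 (SE 0.15, adjusted p = 0.0329, edgeR). For both genes the lowest leptin sample, the first, lay within the PBS range. Col5a3 measured 39.4, 63.1, 43.1, 28.9 and 55.8 TPM with PBS and 18.7, 24.7, 32.0, 30.5 and 28.5 with leptin, and fell by 0.80 (SE 0.201, adjusted p = 0.0326, edgeR). Only the fourth PBS sample reached into the leptin range, and Col5a3 was not called by limma on log2 TPM. Tnc and Timp1 were called in each of the 10 fits that left out 1 sample, Col5a3 and Fap in 5 and Col5a2 in 4. Without PBS sample 1 or 2 or leptin sample 4 or 5 the count was 2, and without leptin sample 3 it was 3.

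Of the other matrix genes in female CV, 6 of 19 proteases and inhibitors rose and 0 fell, led by Mmp9 (log2 fold change 1.36), Mmp16 (1.10) and Adam12 (0.86). Of 9 other collagens Col1a1 (1.66), Col1a2 (1.41) and Col8a1 (0.99) rose, and of 19 processing enzymes Bmp1 (0.75) and P3h1 (0.70). Glycoproteins went both ways, with 2 of 28 higher and 4 lower, and the laminin chain Lamb3 (-0.66) was the only one of 12 other basement membrane genes called. Of the receptors Itga7 fell (-0.61), and of the signalling genes Tgfb1 (0.55) and Ccn4 (1.00) rose.

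In the same samples the 6 osteoblast and osteocyte markers summed to 1514 to 3172 TPM with PBS and 2199 to 7498 with leptin, and 2 of 6 were called higher (Sp7 and Alpl). The 5 macrophage markers summed to 357 to 497 and 579 to 768 TPM, with 2 higher, the 6 adipocyte markers to 5921 to 7774 and 3646 to 6280 TPM, with 3 lower, and the 3 tendon markers to 127 to 152 and 75.1 to 122 TPM, with 1 lower. Skeletal muscle markers summed to 17392 to 38157 TPM with PBS and 14213 to 33351 with leptin, with 0 of 6 called. The 7 fibroblast and progenitor markers summed to 1299 to 1673 TPM with PBS and 727 to 1320 with leptin, and 2 were called lower (Dpt and Pi16). The 6 chondrocyte markers summed to 1366 to 1756 TPM with PBS and 721 to 1375 with leptin, with 0 called. The part of these cell types in the changes of the matrix genes was not tested.

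In the other bone groups leptin gave no call among the 40 genes. In CV of male WT mice 0 were called, beside 0.834% of all genes higher and 0.914% lower, and 3 had an unadjusted p under 0.05 (Col5a3 -0.58, Tnc 0.43 and Adamts1 1.27 on the log2 scale), against 19% of all genes. In CV of female KO mice 0 were called, beside 0% and 0.0269%, and 6 had an unadjusted p under 0.05, all below 0 (Vcan -0.99, Col5a3 -0.84, Fbn1 -0.73, Lama2 -0.48, Col4a2 -0.48 and Col4a1 -0.41), against 11.6% of all genes. In CV of male KO mice 0 were called, beside 0.0874% and 0.101%, and 6 had an unadjusted p under 0.05, against 9.66% of all genes. Of these 6, Col5a3 (-0.78, unadjusted p = 0.0027, edgeR), Col4a1 (-0.35), Lama2 (-0.30) and Lamc1 (-0.25) were below 0 and Mmp3 (0.57) and Eln (0.35) above. DESeq2 called 0, 2 and 1 of the 40 genes in these 3 groups, and the share of all genes it called there is not given. Mouse series were spread unevenly over the male KO arms, so leptin and series cannot be fully told apart there. The 40 genes summed to 9690 and 10756 TPM in PBS samples 1 and 2, of the same series as leptin sample 1 (8478 TPM). They summed to 6347, 6808 and 6612 TPM in PBS samples 3 to 5, of another series. In leptin samples 2 to 4, of other series than sample 1, they summed to 6481, 6912 and 7158 TPM.

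In LV, 0 of the 40 genes and 0% of all genes were called with leptin in either genotype. In female WT mice 15 of 40 had an unadjusted p under 0.05, 12 above 0 and 3 below, against 14.7% of all genes, and in female KO mice 3 had, against 8.95%. The 12 in WT included Timp1 (0.36), Col6a2 (0.35), Tnc (0.32) and Col4a1 (0.29, unadjusted p = 0.00634, adjusted p = 0.179, edgeR). Levels in this marrow-rich bone were low for most of these genes. Col4a1, for example, measured 7.25, 6.61, 7.78, 4.77 and 7.16 TPM with PBS and 10.1, 7.63, 6.92, 9.26 and 7.81 with leptin. DESeq2 called 0 in both genotypes.

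**Figure D4:**
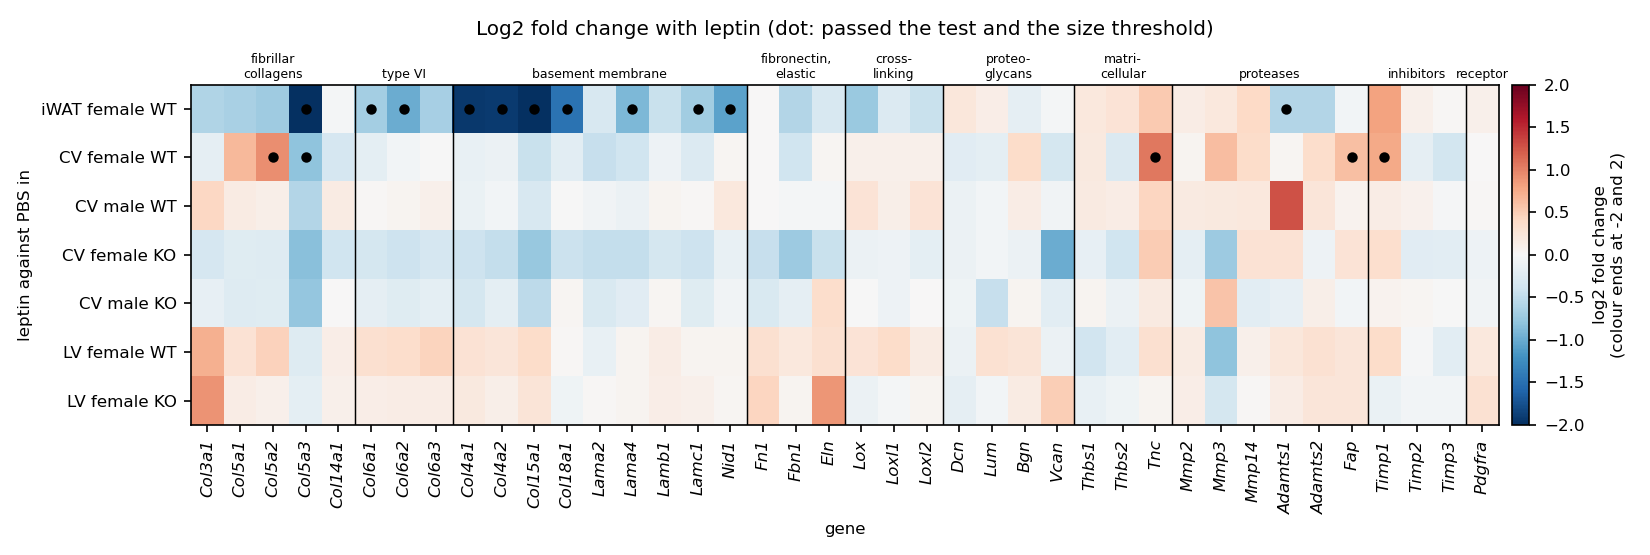
Log2 fold change of leptin against PBS for each of the 40 genes (columns, by class) in the 7 leptin comparisons (rows), blue for lower and red for higher with leptin, with a dot where the gene was called. The block of low values at the basement membrane genes stands in the iWAT row, where 7 of 9 are called, and Col5a3 is below 0 in all 7 rows.

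Followed through all 7 leptin comparisons, the most abundant gene of each class gave the following log2 fold changes. Col4a1 stood at -1.94 in iWAT, at -0.14, -0.14, -0.41 and -0.35 in CV of female WT, male WT, female KO and male KO mice, and at 0.29 and 0.20 in LV of female WT and KO mice. In the same order Col3a1 stood at -0.60, -0.17, 0.41, -0.33, -0.17, 0.71 and 0.90, and Col6a1 at -0.67, -0.19, 0.02, -0.35, -0.18, 0.31 and 0.14. Col4a1 and Col6a1 were called in iWAT, Tnc in CV of female WT mice, and none of the 10 in any other group. Tnc stood at 0.53, 1.06, 0.43, 0.51, 0.18, 0.32 and 0.05. For Mmp2 the values ran from 0.15 in iWAT through 0.05, 0.19, -0.18 and -0.09 in CV to 0.16 and 0.13 in LV, and for Timp2 they were 0.10, -0.18, 0.09, -0.23, 0.04, -0.03 and -0.05. Neither the protease nor its inhibitor was called anywhere. Dcn stood at 0.22, -0.23, -0.12, -0.11, -0.09, -0.11 and -0.18, Lox at -0.75, 0.11, 0.27, -0.11, -0.01, 0.27 and -0.12, and Fn1 at 0.00, 0.01, 0.01, -0.46, -0.30, 0.32 and 0.43. Pdgfra, the receptor that marks progenitors, stayed between -0.11 and 0.30 in all 7.

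Whether leptin acted differently on the same gene in fat and in bone was tested as an interaction in the female WT mice. Between iWAT and CV, 10 genes differed, all with the lower value in iWAT, beside 6.64% of all genes lower and 4.68% higher. They were Col15a1 (difference of log2 fold changes -2.52, SE 0.278), Col5a3 (-1.95), Col4a2 (-1.84), Col4a1 (-1.83), Col5a2 (-1.68), Col5a1 (-1.34), Col18a1 (-1.32), Nid1 (-1.13), Col6a2 (-0.98) and Lama4 (-0.55). With the mouse as a replicate block, which the shared animals allow, all 10 kept the call and 15 genes differed. The share of all genes called in that blocked fit is not given, so the 15 show only how the calls depend on the fit. When 1 mouse was left out, Lama4 was called in 4 of 10 fits, Col6a2 in 5, Col5a1 in 9 and the other genes named in all 10.

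Between iWAT and LV, 15 genes had the lower value in iWAT and 1 the higher, beside 7.51% and 5.41% of all genes. The 10 largest were Col15a1 (-3.30), Col5a3 (-2.46), Col4a1 (-2.24), Col4a2 (-2.18), Col18a1 (-1.53), Col6a2 (-1.37), Col5a2 (-1.19), Nid1 (-1.14), Col6a3 (-1.13) and Lox (-1.03), and Mmp3 was the gene with the higher value (1.00). Of 9 basement membrane genes 8 thus differed between fat and LV in their response, and 6 between fat and CV. Without leptin mouse 1 the count against LV was 10. In the 10 fits that left out 1 mouse, Lox was called in 1, Mmp3 and Adamts1 in 2 and Col5a2 in 4. Lamb1 was called in 6 and Col6a3 in 7, and the other genes that differed from LV in all 10. The other matrix genes that differed were mostly lower in iWAT as well, among them 7 of 19 processing enzymes and 9 of 19 proteases and inhibitors against CV, with 0 and 1 higher, and 6 of 19 and 6 of 19 against LV, with 0 and 1 higher.

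Within CV, no difference in the leptin response passed the test. Between sexes of WT mice 0 of 40 and 0% of all genes were called, and 3 genes had an unadjusted p under 0.05 against 7.6% of all genes, all higher in females (Col5a2 0.84, Tnc 0.66 and Fap 0.56). Between genotypes 0 of 40 and 0% of all genes were called in either sex. Part of this contrast cannot be told apart from mouse series. In females Col5a2 (-1.21), Col5a1 (-0.91) and Bgn (-0.50) had an unadjusted p under 0.05, against 6.09% of all genes, and in males Adamts1 alone (-1.44), against 2.64%. The rise of Tnc and Timp1 in female WT mice is therefore not shown to be particular to that sex or genotype.

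Loss of ATGL in marrow adipocytes without leptin gave no call. A series of mouse numbers held KO mice only, so genotype and series cannot be fully told apart in these comparisons. In CV of female mice with PBS 0 of 40 and 0% of all genes were called, and 10 of 40 had an unadjusted p under 0.05, against 9.92% of all genes, each higher in the KO. The largest were Timp1 (0.79, unadjusted p = 0.00803, adjusted p = 0.369, edgeR), Col5a2 (0.61) and Col5a1 (0.57). Timp1 measured 34.0, 39.97, 61.0, 46.8 and 49.0 TPM in the WT and 93.0, 107, 52.9 and 64.8 in the KO samples. In males 0 genes and 0% were called and Mmp3 alone had an unadjusted p under 0.05 (-1.71), against 5.26%, and in LV 0 and 0% were called and Vcan alone had (-0.35), against 2.61%. DESeq2 called 0 of the 40 in all 3 comparisons.

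Insulin pellets were combined with leptin in CV of male WT mice. With leptin and insulin together, against leptin alone, 4 genes fell and 0 rose, beside 0.222% and 0.141% of all genes. Of the 40 genes 39 were below 0, against 51% of all genes. Insulin and mouse series cannot be told apart wherever mice with insulin are compared with mice without. The called genes were Col3a1, Col14a1, Col6a2 and the crosslinking enzyme Loxl2. In each case the values below are the lowest, the median and the highest of the 8 leptin and 6 leptin and insulin samples.

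**Figure D5:**
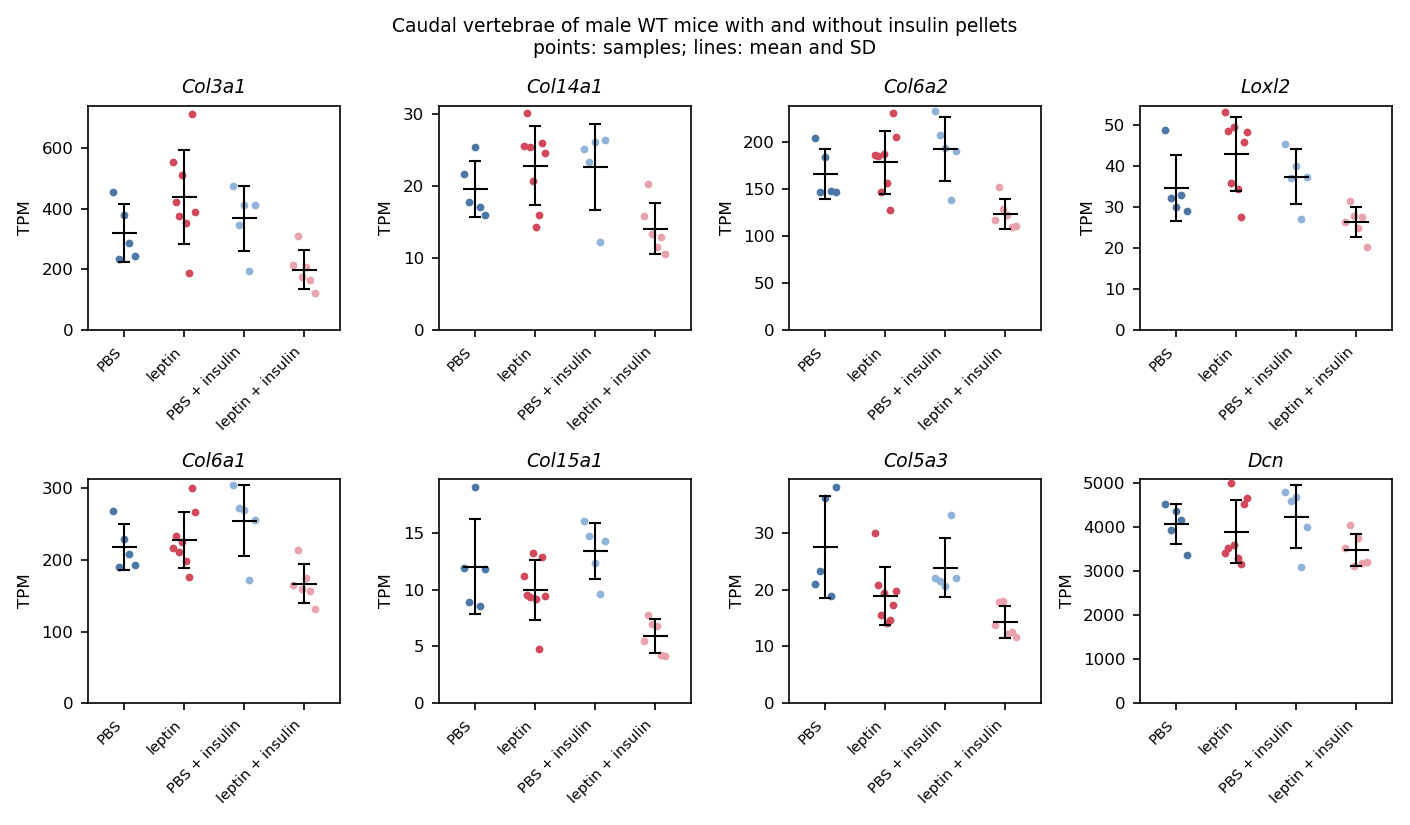
TPM of the 7 genes called in any insulin comparison, and of Dcn, in CV of male WT mice, each sample as a point with the mean and SD as lines, for PBS, leptin, PBS with insulin and leptin with insulin (n = 5, 8, 5 and 6). The samples with leptin and insulin lie lowest on average for every gene shown, and their ranges overlap those of leptin alone.

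Col3a1 measured 187.7, 406 and 712 TPM with leptin and 121, 192 and 309.8 with leptin and insulin, and fell by 1.14 on the log2 scale (SE 0.242, adjusted p = 0.0309, edgeR). Col14a1, a collagen that sits on the surface of fibrils, measured 14.2, 25.0 and 30.2 and 10.6, 13.1 and 20.2 TPM and fell by 0.70 (SE 0.166, adjusted p = 0.049, edgeR). The ranges of both genes overlapped, although the medians were well apart. Loxl2 measured 27.5, 47.1 and 53.1 and 20.2, 26.9 and 31.4 TPM and fell by 0.70 (SE 0.138, adjusted p = 0.0263, edgeR). Col6a2 measured 127, 186.1 and 231 and 109, 119 and 152 TPM and fell by 0.51 (SE 0.119, adjusted p = 0.0423, edgeR). Bgn was lower by less than the size of a call (-0.41, adjusted p = 0.035, edgeR).

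Against insulin without leptin, the mice with both had 3 genes lower and 0 higher, beside 0.417% and 0.141% of all genes. Of the mice with both, 3 of 6 came from a series of mouse numbers that held no mouse with insulin alone, so part of this contrast cannot be told apart from series. Col15a1 measured 16.0, 14.8, 12.4, 9.61 and 14.3 TPM with insulin and 4.12, 6.15 and 7.77 (lowest, median and highest of 6) with both, without overlap, and fell by 1.13 (SE 0.216, adjusted p = 0.0148, edgeR). Col6a1 measured 304, 272, 269.9, 171 and 256 TPM with insulin and 132, 161.9 and 214 with both, and Col6a2 233, 207, 194, 138 and 190.3 and 109, 119 and 152. For the type VI chains the fourth insulin sample alone lay within the range of the mice with both. They fell by 0.56 (SE 0.137, adjusted p = 0.0495, edgeR) and by 0.59 (SE 0.131, adjusted p = 0.0318, edgeR).

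Against PBS, the mice with leptin and insulin had 2 genes lower and 0 higher, beside 0.706% and 0.397% of all genes. Col5a3 measured 21.0, 23.4, 36.2, 19.0 and 38.2 TPM with PBS and 11.6, 13.1 and 17.95 with both, and fell by 0.99 (SE 0.189, adjusted p = 0.0103, edgeR). Its highest sample with both was below the lowest PBS sample. Col15a1 measured 12.0, 8.94, 19.0, 8.53 and 11.8 TPM with PBS, all above the highest sample with both, and fell by 1.06 (SE 0.216, adjusted p = 0.015, edgeR). These 3 comparisons share the samples with both treatments.

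Insulin without leptin gave no call against PBS: 0 of 40 and 0% of all genes were called, and 3 of 40 had an unadjusted p under 0.05 (Mmp3 -1.44, Tnc 0.34 and Nid1 0.27), against 6.56%. The interaction of leptin and insulin gave 0 calls in the 40 and 0% of all genes, with 23 of 40 at an unadjusted p under 0.05, all below 0, against 9.31% of all genes. Its lowest values were those of Col3a1 (-1.26, adjusted p = 0.522, edgeR) and Adamts1 (-1.03). DESeq2 called 0 in the first of these and 4 in the second. The share of all genes it called there is not given, so the 4 are not a result about these genes.

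The insulin calls rest on few samples. For leptin with insulin against leptin, the count was 0 without either sample 4 or sample 5 of the mice with both, 1 without their sample 1 or 3 or leptin sample 4 or 7, 2 without their sample 6, leptin sample 1, 2 or 8, PBS sample 4 or insulin sample 2, 3 or 5, and 8 without leptin sample 6. Loxl2 was called in 22 of 24 such fits, Col3a1 in 18, Col6a2 in 10 and Col14a1 in 5. Against insulin without leptin the count was 0 without insulin sample 2, 1 without insulin sample 1, 3 or 5 or sample 1 or 5 of the mice with both, 6 without leptin sample 6, and 7 without insulin sample 4 or sample 2 of the mice with both, with Col15a1 called in 23 of 24, Col6a2 in 17 and Col6a1 in 6. Against PBS both genes were called in 24 of 24. In a fit chosen after the data had been seen, without the 3 mice with leptin and insulin of the second series (samples 4 to 6), the count was 0 in each of the 3 comparisons, with log2 fold changes of -0.98 for Col3a1 against leptin and -0.93 for Col15a1 against PBS. With limma on either TPM scale none of the 4 genes was called against leptin alone, and with the replicate block 2 were.

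Among the other matrix genes, Mfap4 (-1.42), Tnxb (-0.60), Pcolce (-0.57) and Adam12 (-0.61) fell with both treatments against leptin alone. Serpinh1 (-0.50) and Itga11 (-0.55) fell against insulin alone, and Mfap4 (-1.13), Ltbp2 (-0.75), Tnxb (-0.57) and Podn (-0.53) against PBS, and 0 of the 7 lists held a gene that rose in these 3 comparisons. Of the markers, the 3 tendon markers summed to 127 to 249 TPM with leptin and 100.1 to 188.8 with both, with 0 called, and the 7 fibroblast and progenitor markers to 1394 to 1967 and 1045 to 1716 TPM, with 0 called against leptin, 2 lower against insulin alone (1328 to 2097 TPM) and 1 lower against PBS (1369 to 1964 TPM). Osteoblast and osteocyte markers summed to 638 to 1399 TPM with leptin, 804 to 1190 with both and 1535 to 1976 with insulin alone. The 6 chondrocyte markers summed to 770 to 1523 TPM with leptin, 823 to 1148 with both, 1192 to 1760 with insulin alone and 1069 to 1441 with PBS, so that both and insulin alone did not overlap, and 1 was lower with both against insulin alone and 1 against PBS. Of the 6 skeletal muscle markers 1 was lower with both against PBS. The part of these cell types in the lower matrix genes was not tested.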

How the data were processed

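RNA of iWAT, CV and LV was enriched with oligo dT, reverse-transcribed with random primers and sequenced as 100 bp paired reads by a sequencing company. The authors deposited estimated counts per gene and TPM values (transcript levels scaled by gene length and to a fixed total), made after HISAT and Bowtie2 alignment to GRCm38.p6. The labels also name GRCm39, and the counting program and its use of strand are not given in the sources used here. Of 74693 rows 39063 had a gene number and held all counts. The estimated counts were rounded (51 values in 6 genes were not whole). Genes that averaged 0.4 TPM or more over 79 samples were tested with edgeR 4.0.16 (quasi-likelihood, TMM) in R 4.3.3, each leptin, tissue and genotype comparison in its own samples and the 4 insulin groups together, with Benjamini-Hochberg adjustment over 14873 genes. A gene was called at an adjusted p under 0.05 and a log2 fold change of at least 0.5 in size, and "rose" and "fell" are kept for called genes. The fold changes of interactions are differences of 2 leptin effects, as iWAT minus bone, female minus male, KO minus WT and with minus without insulin.

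Levels are TPM. Named genes were those called where 10 or fewer, otherwise the 10 called with the largest fold change, beside the most abundant gene of each class. The 40 genes and all lists were chosen with earlier results of these data known. Alternatives were DESeq2 1.42.0, limma 3.58.1 on log2(TPM + 1) and log2(TPM + 0.1), RLE factors, total counts, other filters and thresholds, a replicate or mouse block, the series of mouse numbers, leaving out each sample, and, added after the data had been seen, leaving out the 3 leptin and insulin mice of a second series. The fits were also run on counts simulated from the model of edgeR itself, without shared mice or mouse series. Such a run can check only the code, not the calls. Leptin and PBS mice of the same number are different animals, whereas the tissues of a treatment group are from the same mice. Comparisons between tissues used this pairing only in the alternative with a mouse block. Replicates are separate mice, and no 2 libraries of the same group agreed within sampling noise. Promoters were read from a RefSeq table of GRCm38.p6.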

Additional observations from a re-analysis of the deposited data

Results flagged for a closer look

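In 49 of 640 pairs of a gene and a group, 1 sample lay far from the others of its group (Dixon's test), in 30 of the 40 genes. Chance flags about 1 in 20 groups. Sample 4 of the male WT CV with PBS and insulin had 7 of them: Col5a3 was the highest of its group at 33.1 TPM, and Col5a2 (55 TPM), Col14a1 (12.2), Lama4 (25.4), Thbs2 (65.6), Timp2 (478) and Pdgfra (48) were the lowest. In the third iWAT sample with leptin Lama2 (21 TPM), Lamb1 (77), Lamc1 (59.6), Lox (27.9) and Thbs2 (56.8) were the highest, and in the second female KO CV sample with leptin Col18a1 (24.9 TPM), Lamc1 (62.2), Fbn1 (109), Loxl2 (56.7) and Adamts2 (102) were. The first male KO CV sample with leptin was highest for Col14a1 (23.9 TPM), Bgn (1140), Vcan (51.2) and Tnc (229), and the second male WT CV sample with leptin and insulin for Lama4 (29.5 TPM), Nid1 (56.6), Mmp3 (88.2) and Timp1 (68.8). No other male KO sample with leptin came from the mouse series of the first.

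The other CV samples that stood apart in male WT mice were highest for Loxl2 (48.7 TPM, first PBS sample), Col5a3 (30.1, first leptin sample), Adamts1 and Timp3 (63.7 and 323, eighth leptin sample) and Adamts1 (30.6, sixth sample with leptin and insulin), and lowest for Col4a1 and Loxl1 (53.5 and 41.9, PBS sample 4) and Lum (118, sixth sample with leptin and insulin). In CV of female WT mice Mmp3 was high in the first leptin sample (121 TPM) and Dcn low in the second (1870). In CV of KO mice Col5a2 (238 TPM) and Thbs1 (216) were high in the first and the third female PBS samples, Adamts1 (18.2) was high in the first female leptin sample, and Bgn (1324) in the second female PBS sample and Timp3 (130) in the second male leptin sample were low. In iWAT Col4a2 was low in the fourth leptin sample (27.1 TPM). In LV the fourth WT PBS sample was low for Col4a2 (3.04 TPM), Fn1 (39) and Thbs2 (1.92), the fifth was high for Loxl1 (11.4) and Timp2 (54.1), and 1 leptin sample each was low for Col18a1 (0.82, WT), high for Thbs1 (65.7, WT) and high for Fbn1 (3.48, KO).

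The leptin response differed between iWAT and CV by a test of the difference in 10 genes, with differences of log2 fold changes (iWAT minus CV) of -1.34 for Col5a1, -1.68 for Col5a2, -1.95 for Col5a3, -0.98 for Col6a2, -1.83 for Col4a1, -1.84 for Col4a2, -2.52 for Col15a1, -1.32 for Col18a1, -0.55 for Lama4 and -1.13 for Nid1. It differed between iWAT and LV in 16 genes, with differences (iWAT minus LV) of -1.19 for Col5a2, -2.46 for Col5a3, -1.01 for Col6a1, -1.37 for Col6a2, -1.13 for Col6a3, -2.24 for Col4a1, -2.18 for Col4a2, -3.30 for Col15a1, -1.53 for Col18a1, -0.98 for Lama4, -0.61 for Lamb1, -0.76 for Lamc1, -1.14 for Nid1, -1.03 for Lox, 1.00 for Mmp3 and -0.82 for Adamts1.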

How the results depend on the processing

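Of 2388 values of called genes recomputed under an alternative, 2194 stayed on their side of the threshold, the rest lost the call and 0 changed direction. In iWAT with leptin, where 11 of the 40 genes were called, the count was 14 with DESeq2, 12 with RLE factors, 15 with limma on either scale and 11 with the replicate block, and 9 to 20 when 1 sample was left out. Leaving out 1 sample gave 2 to 6 calls in CV of female WT mice, 0 to 1 in CV of male WT and of female KO mice, 30 to 33 for CV against iWAT, 7 to 15 and 10 to 21 for the differences of iWAT against CV and LV, 0 to 8 for leptin with insulin against leptin, 0 to 7 against insulin alone and 2 to 3 against PBS. A single fit of all CV groups called 1 gene in male WT and 1 in female KO mice, and DESeq2 2 in female KO and 1 in male KO mice, where the result above was 0. For leptin with insulin against leptin (4 called) DESeq2 gave 8, limma 0 on both scales and the replicate block 2. Against insulin alone (3 called) DESeq2 gave 11, limma on log2(TPM + 1) 5 and the adjusted p alone 6, and for the interaction of leptin and insulin (0 called) DESeq2 gave 4. Without samples 4 to 6 of the mice with leptin and insulin, an alternative chosen after seeing the data, the counts of leptin with insulin were 0 against leptin, 0 against insulin alone and 0 against PBS (2 called). The replicate numbers pair different animals in the leptin and insulin comparisons, so the blocked counts there are a description. For these counts the cause of the difference was not tested. The shares of all genes called under the alternatives are not given, so these counts show only how the calls depend on processing and samples. Mmp3 had the lowest count of the 40 genes in any library (17), which limits its precision.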
